A study of Rattus norvegicus with 6 samples.

Results

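The axoneme is the microtubule core of the motile cilium and of the sperm tail, and the genes described here are the 47 rat genes of 8 named axoneme families that were measured in the ovary. They were chosen by name alone, as every gene whose current symbol starts with Cfap, Dnah, Dnai, Dnaaf, Drc, Rsph, Tekt or Odad followed by a digit. They are 47 of 14217 genes on the array, measured by 53 probe sets, and the RefSeq gene table (assembly GRCr8) lists 97 protein-coding genes with such symbols. The families were put forward because ciliary genes had already been seen to be lower in the overfed ovaries of these same arrays. The difference between the diets is therefore a description here, with no test over the members.

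Ovaries came from female rats at 4.5 days after mating. The overfed group was fed at a level of 220 kcal per kg of metabolic weight, as a liquid diet given through a tube. This method is called total enteral nutrition. The lean group was fed in the same way at a level of 155 kcal per kg. Both groups were on their diets for 28 days, and the levels are not totals over that time. Both groups were mated with lean males, and each contributed 3 RNA pools, each on 1 Affymetrix array. The labels do not say how many animals a pool held, or that pools came from separate experiments, so the spread between pools may in part be technical. The series asks which ovarian genes differ with overfeeding.

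A motile axoneme is built of outer doublet microtubules around a central pair. Dynein arms on the doublets slide them past each other, the nexin-dynein regulatory complex links neighbouring doublets and limits that sliding, and radial spokes carry signals from the central pair to the arms. Tektins and other microtubule inner proteins line the inside of the doublets. Cytoplasmic assembly factors preassemble the arms before they enter the cilium. Motile cilia are borne by multiciliated epithelial cells such as those of the oviduct, and their genes are switched on by the forkhead factor Foxj1 and by RFX factors, which bind a motif called the X-box in many ciliary promoters.

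The promoters of several members hold copies of the RFX half-site, and the stretches around some of these copies are shown so that the letters can be read beside the genes' values. RefSeq promoter windows (build GRCr8, 250 bases before to 50 after the start) were matched for 40 of the 47 genes. The half-site GTTGCC, read on both strands (GGCAAC on the other), was present in 13 of the 40, which is 32.5% of them, against 12.2% of all 27457 promoters and 12.4% of the 11700 promoters of genes on the array. A forkhead core, TGTTTAC on either strand, was in 2 of the 40 (5%), against 3.76% of all promoters. An inverted pair, GTTGCC followed by GGCAAC with 0 to 3 bases between, was looked for after the half-sites had been seen, and 3 such pairs lay in the promoters of 2 members (5% of 40), against 0.197% of all promoters. The windows run 5′ to 3′ on the gene's strand, end before the start site, and have the half-sites in capitals. They lie on GRCr8 at chr11:43677440-43677494 and chr11:43677580-43677632 (minus strand) for Cfap298, chr15:18661364-18661417 (plus) for Cfap20dc, chr10:54766046-54766091 (minus) for Dnah2, chr10:57479135-57479180 (minus) for Tekt1, chr5:143907728-143907773 (minus) for Tekt2, chr6:31779257-31779295 (minus) for Drc1, chr1:147177853-147177898 (minus) for Cfap161, chr1:36678305-36678350 (minus) for Cfap90 and chr19:9614807-9614852 (plus) for Cfap20.
Cfap298, nearer window: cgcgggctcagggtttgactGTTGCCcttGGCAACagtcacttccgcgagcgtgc
Cfap298, farther window: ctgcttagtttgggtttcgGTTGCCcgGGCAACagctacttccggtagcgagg
Cfap20dc: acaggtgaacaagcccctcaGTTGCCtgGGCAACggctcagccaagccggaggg
Dnah2: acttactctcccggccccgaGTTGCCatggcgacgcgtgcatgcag
Tekt1: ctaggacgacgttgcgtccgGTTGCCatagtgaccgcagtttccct
Tekt2: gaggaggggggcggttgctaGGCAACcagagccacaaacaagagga
Drc1: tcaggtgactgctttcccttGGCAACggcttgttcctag
Cfap161: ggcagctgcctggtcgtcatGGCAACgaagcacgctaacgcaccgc
Cfap90: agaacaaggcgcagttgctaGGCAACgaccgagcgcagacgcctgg
Cfap20: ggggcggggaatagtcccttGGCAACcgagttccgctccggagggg

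A match of these letters is a description and not a site, and the members with and without it overlapped in their difference between the diets. Of the 13 genes with a half-site, 8 were at least 1.5-fold lower in the overfed pools, with a median log2 difference of -1.16. Of the 27 without it, 16 were at least 1.5-fold lower, with a median of -0.76. The 13 ran from Drc12 (-1.75), Cfap144 (-1.73), Cfap161 (-1.66) and Tekt2 (-1.63), through Tekt4 (-1.32), Dnah2 (-1.26), Tekt1 (-1.16) and Drc1 (-1.03), to Cfap298 (-0.29), Cfap20dc (-0.22), Cfap36 (-0.11), Cfap20 (-0.08) and Cfap90 (-0.08). Cfap298 and Cfap20dc are the genes with an inverted pair, and they lay among the 5 half-site genes with the smaller differences.

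The values are logarithms, read as log2, and every probe set is centred on the median of its 6 values, so differences between pools are known and levels are not. Whether a gene was near background, and whether the marker genes of the ovary were present, cannot be read from them. Array medians over all probe sets lay between -0.0094 and 0.0099. Lean pool 3 stood apart in 18 spike-in probe sets (mean 0.51, against -0.24 to 0.045 in the other pools) and in beta-actin probe sets, 3′ end minus 5′ end (0.36, against -0.062 to 0.061), and overfed pool 1 had the widest spread over probe sets (SD 0.29, against 0.14 to 0.24). Results are therefore also given without overfed pool 1 and lean pool 3. Of 14217 genes, 0 passed an adjusted p of 0.05 in limma over all genes (smallest adjusted p = 0.504), and 1021 had an unadjusted p under 0.05. No axoneme gene thus passed the adjusted threshold.

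Most axoneme genes were lower in overfed ovaries. Of 47, 43 were lower and 4 higher, with a median difference of -0.76 on the log2 scale (1.70-fold), against a median of 0.0079 over all genes, of which 47.4% were lower. The groups did not overlap in 31 members, all 31 lower in the overfed pools, where 6.35% of all genes were lower and 7.09% higher without overlap. At least 1.5-fold lower were 26 members (1.88% of all genes), at least 2-fold lower 18 (0.668% of all genes), and 0 were 1.5-fold higher (0.387%). The 18 genes were 38.3% of the members and 18.9% of the 95 genes on the array that were at least 2-fold lower. An unadjusted p under 0.05 was found in 30 members, all lower (4.42% of all genes were lower at that threshold and 2.76% higher). Since ciliary genes lower in this contrast led to the choice of the families, nothing is read from these shares. Without overfed pool 1 and lean pool 3 the median was -0.49. In whole ovary RNA, fewer ciliated cells and less of each RNA per cell cannot be told apart.

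**Figure D1:**
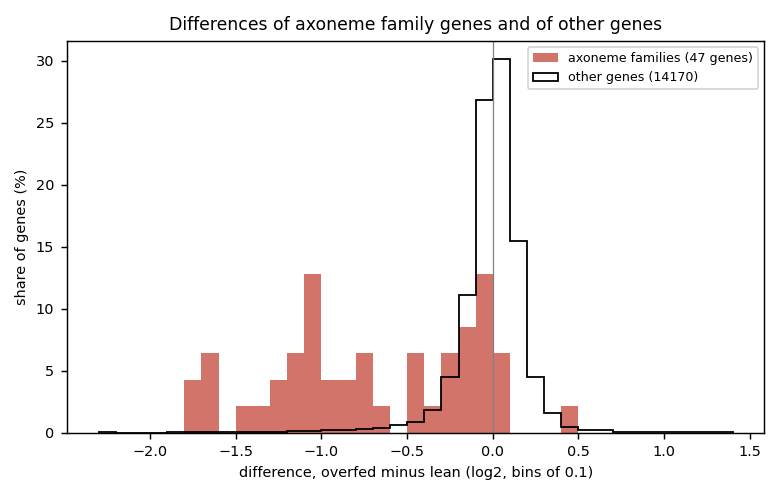
Share of genes (vertical axis, %) by their difference, overfed minus lean, on the log2 scale (horizontal axis, bins of 0.1), for the 47 axoneme family genes (filled) and the other 14170 genes (outline). The other genes centre near 0, while the axoneme genes spread from -1.75 to 0.41, with one set near 0 and a broader one around -1.

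Dynein arms are the motors of the axoneme. Dnah1, an inner arm heavy chain, had -1.74, -0.19 and -0.94 in overfed pools 1 to 3, against 0.42, 0.19 and 0.96 in lean pools 1 to 3. Its difference was -1.48 (SE 0.39), or 2.79-fold, and the lowest lean pool lay above the highest overfed pool by 0.38. The inner arm heavy chains Dnah2 (-1.26, SE 0.34) and Dnah7 (-1.14, SE 0.31) had the same pattern, with overfed pool 1 the lowest of the 6. Dnah17, known as an outer arm heavy chain of sperm flagella, did not share it: it had -0.01, -0.15 and 0.11 in the overfed pools, against 0.01, 0.18 and -0.23 in the lean pools, and the groups overlapped. The intermediate chains were both lower without overlap. Dnai1, of the outer arm, had -1.20, -0.08 and -0.78 in the overfed pools, against 0.36, 0.08 and 0.80 in the lean pools, a difference of -1.10 (SE 0.31). Dnai7, of an inner arm, differed by -0.79 (SE 0.20).

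Outer arms sit on docking complexes, of which 2 genes were measured. Odad3 had -0.90, -0.13 and -0.47 in the overfed pools, against 0.13, 0.29 and 0.50 in the lean pools, with a difference of -0.81 (SE 0.20). Odad4 differed by -0.48 (SE 0.13), also without overlap. In Odad3 the lowest lean pool was pool 1, whereas in most members it was pool 2.

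The assembly factors had the smallest shift of the 8 families, with a median of -0.31 over 6 genes, and it was -0.12 without overfed pool 1. Dnaaf3, which is needed for preassembly of the arms, had -0.59, -0.17 and -0.18 in the overfed pools, against 0.34, 0.17 and 0.82 in the lean pools (difference -0.76, SE 0.19). Dnaaf8 was also lower without overlap in the average of its probe sets (-0.44, SE 0.13). Its probe set at -0.60 did not overlap between the groups, whereas that at -0.28 did. Dnaaf1, another preassembly factor, had its low value in 1 pool: -0.93, 0.24 and -0.16 in the overfed pools, against 0.41, 0.07 and -0.07 in the lean pools, so that the groups overlapped at a difference of -0.42 (SE 0.29). The preassembly factor Dnaaf5 (-0.19, SE 0.11), Dnaaf10 (-0.05, SE 0.11) and Dnaaf9 (0.01, SE 0.080) overlapped between the groups. Dnaaf10 was at 0.049 without overfed pool 1, and Dnaaf9 at -0.048 without lean pool 3.

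All 3 measured genes with a Drc symbol, which stands for the nexin-dynein regulatory complex, were at least 2-fold lower (0.668% of all genes). Gas8, a subunit of that complex without such a symbol, differed by -0.45 (SE 0.084). Drc12 had the largest difference of all members: -1.87, -0.40 and -0.83 in the overfed pools, against 0.77, 0.40 and 0.98 in the lean pools. Its difference was -1.75 (SE 0.37), or 3.36-fold, and its gap between the groups, 0.80, was also the widest. Drc1, a scaffold of the complex, had -1.16, -0.13 and -0.77 in the overfed pools, against 0.35, 0.13 and 0.56 in the lean pools (-1.03, SE 0.26). Drc3 differed by -1.02 (SE 0.24).

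Radial spoke genes divided. Rsph1, a spoke head protein, had -2.02, -0.27 and -0.96 in the overfed pools, against 0.76, 0.27 and 0.78 in the lean pools. Its difference was -1.69 (SE 0.42), or 3.22-fold, and the head protein Rsph9 differed by -1.08 (SE 0.27). Rsph6a, a spoke head gene known from sperm, had overlapping groups (-0.06, SE 0.097), and Rsph3, a stalk gene, was lower by a gap of 0.026 only (-0.22, SE 0.11, and -0.10 without overfed pool 3). Rsph10b was measured by a pair of probe sets that disagreed. One had -1.28, -0.10 and -0.73 in the overfed pools, against 0.53, 0.10 and 0.54 in the lean pools, and the other had -0.15, -0.12 and 0.045, against 0.084, 0.015 and -0.015. Their differences were -1.10 and -0.11, and the average used for the gene was -0.60 (SE 0.16). With 1 probe set per gene in place of the average, Rsph10b was at -1.10 and the family median at -1.08 instead of -0.60.

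Tektins form filaments inside the doublets. The family split into 3 genes that were at least 2-fold lower (0.668% of all genes) and 3 whose groups overlapped. Tekt2 had -1.90, -0.34 and -0.91 in the overfed pools, against 0.47, 0.34 and 0.93 in the lean pools, a difference of -1.63 (SE 0.38) or 3.09-fold. Tekt4 differed by -1.32 (SE 0.31) and had its highest value, 1.18, in lean pool 3. Tekt1 differed by -1.16 (SE 0.29). Tekt5, known from sperm flagella, varied little, from -0.075 to 0.059 over all 6 pools. The related Tekt5l1 ranged from -0.36 in overfed pool 2 to 0.18 in overfed pool 1. Tekt3, also a flagellar tektin, had 1.5, -0.05 and -0.13 in the overfed pools, against 0.16, -0.11 and 0.05 in the lean pools. It was the only member above 1 in an overfed pool, and its difference of 0.41 (SE 0.42) was -0.12 without overfed pool 1.

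The Cfap genes, named for their association with cilia and flagella rather than for 1 complex, numbered 19. Of these, 18 were lower (47.4% of all genes), 12 without overlap (6.35%) and 10 by at least 1.5-fold (1.88%). Cfap144 and Cfap161, proteins of the doublet lumen, had the largest differences. Cfap144 had -2.07, -0.20 and -1.11 in the overfed pools, against 0.67, 0.20 and 0.95 in the lean pools (-1.73, SE 0.46), and its 2 probe sets gave -1.57 and -1.89. Cfap161 differed by -1.66 (SE 0.42). Cfap77, of the lumen too, had -1.17, -0.13 and -0.72 in the overfed pools, against 0.71, 0.13 and 0.93 in the lean pools (-1.27, SE 0.30). Cfap276 had its lean pools close together, with -1.17, -0.35 and -0.62 in the overfed pools, against 0.54, 0.35 and 0.44 in the lean pools (-1.16, SE 0.20).

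At the other end of the Cfap genes, Cfap410 (-0.04, SE 0.12) and Cfap97 (0.02, SE 0.073) did not separate the groups. Cfap410 had 0.075 without overfed pool 1. Between these ends lay Cfap100 (-1.10), Cfap126 (-1.09), Cfap107 (-0.97), Cfap45 (-0.92), Cfap299 (-0.82) and Cfap69 (-0.76), whose groups did not overlap. In Cfap69 this held for the average of its probe sets, while the probe set at -0.64 overlapped between the groups and that at -0.88 did not. Cfap300 (-0.37) and Cfap298 (-0.29) did not overlap either, whereas Cfap20dc, Cfap36, Cfap418, Cfap20 and Cfap90, from -0.22 to -0.08, did. Without overfed pool 1 and lean pool 3, Cfap20dc was at 0.086 and Cfap300 at -0.19. Cfap299 departed from the usual order of the pools: it had -0.21, -0.36 and -0.41 in the overfed pools, against 0.21, 0.56 and 0.71 in the lean pools, so that overfed pool 1 was its highest overfed pool.

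**Figure D2:**
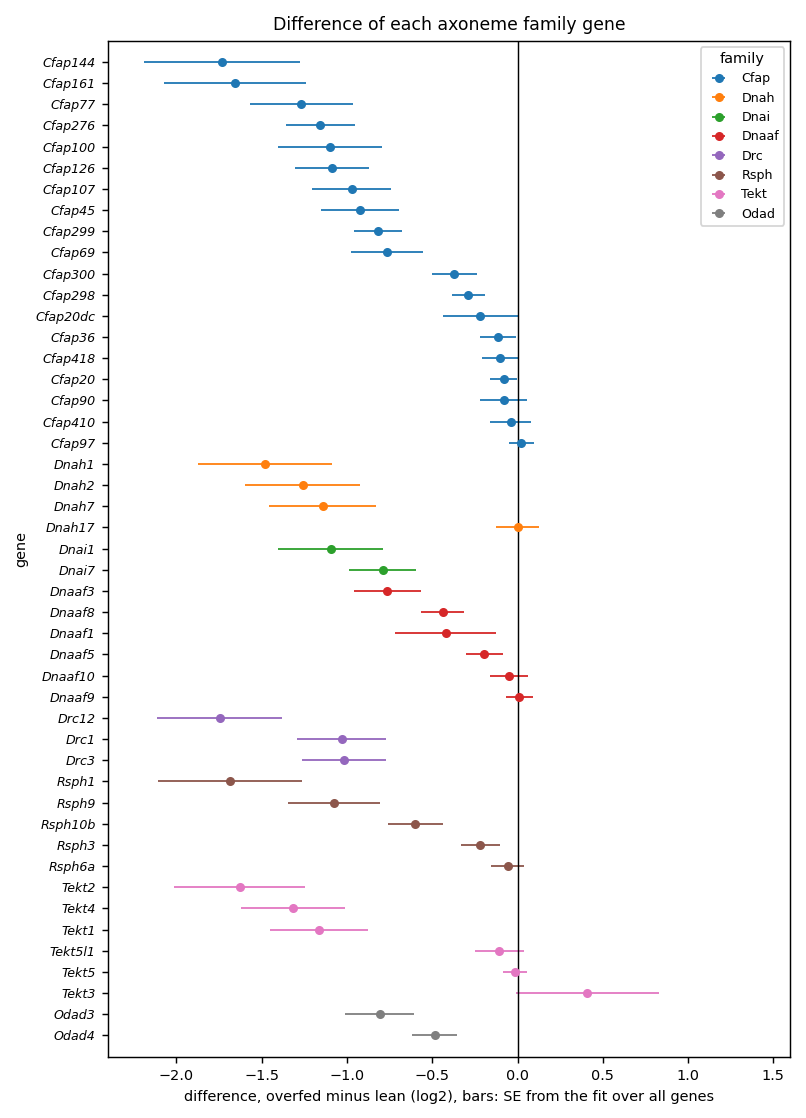
Difference of each of the 47 genes, overfed minus lean (horizontal axis, log2), grouped by family from Cfap at the top to Odad at the bottom, with SE bars from the fit over all genes. Drc12 (-1.75) and Cfap144 (-1.73) lie farthest left, and Tekt3 (0.41, SE 0.42) farthest right.

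Most members had a like order of pools. In 37 of 47, overfed pool 1 was the lowest of all 6 pools, as it was in 22.1% of all genes. That place depends in part on the difference between the diets that led to the families, so nothing is read from its share. Within the groups, the overfed pools of 34 members ran pool 1, pool 3, pool 2 from low to high (18.5% of all genes). Lean pool 2 was the lowest lean pool in 34 members (30% of all genes). The order was not particular to these families: among 35 intraflagellar transport and BBSome genes, overfed pool 1 was the lowest of 6 in 33, the overfed order was the same in 24, and lean pool 2 was the lowest lean pool in 25. Among 6 corpus luteum markers, the overfed order was the same in 5. Family means mostly followed it, except that the Tekt mean was -0.436 in overfed pool 1 and -0.438 in overfed pool 3, and the Odad mean was 0.16 in lean pool 1 and 0.17 in lean pool 2. The Drc mean was -1.39, -0.22 and -0.81 in overfed pools 1 to 3, against 0.50, 0.22 and 0.66 in lean pools 1 to 3, and the Dnah mean was -1.16, -0.16 and -0.57, against 0.35, 0.17 and 0.50. The Dnaaf mean ran over a narrower range, -0.38, 0.01 and -0.10 in the overfed pools, against 0.15, 0.11 and 0.20 in the lean pools.

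**Figure D3:**
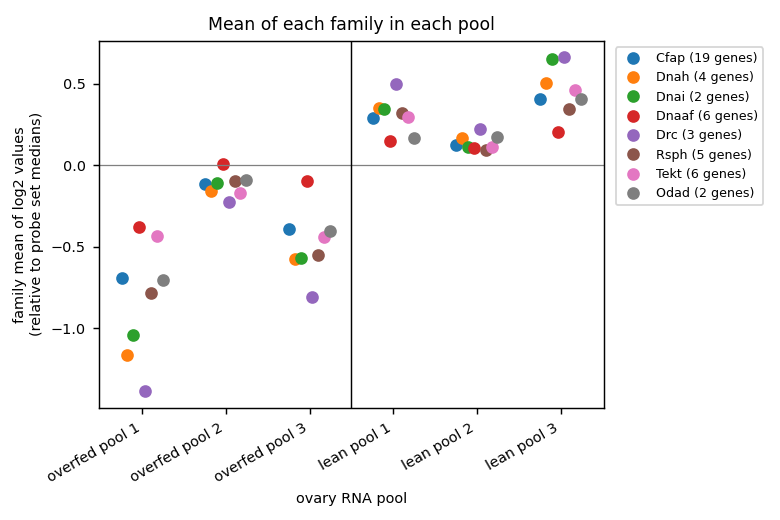
Mean log2 value, relative to probe set medians (vertical axis), of each of the 8 families in each of the 6 pools (horizontal axis, overfed then lean). In every family overfed pool 2 lies highest or level with the highest among the overfed pools, and all 8 lean means in every lean pool are above 0.

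Pools of the same diet were farther apart in these genes than in most. Over the 47 genes the median range within the overfed group was 0.68, and within the lean group 0.41, against 0.22 in each group over all genes, while the median difference between overfed pool 2 and lean pool 2 was -0.24. In the 31 members without overlap, the median gap between the nearest pools of the 2 groups was 0.29. In 26 members the values of overfed pool 2 and lean pool 2 were equal and opposite within 0.001. That follows from the centring: these pools were then the 2 middle ones of 6, and their mean was set to 0.

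**Figure D4:**
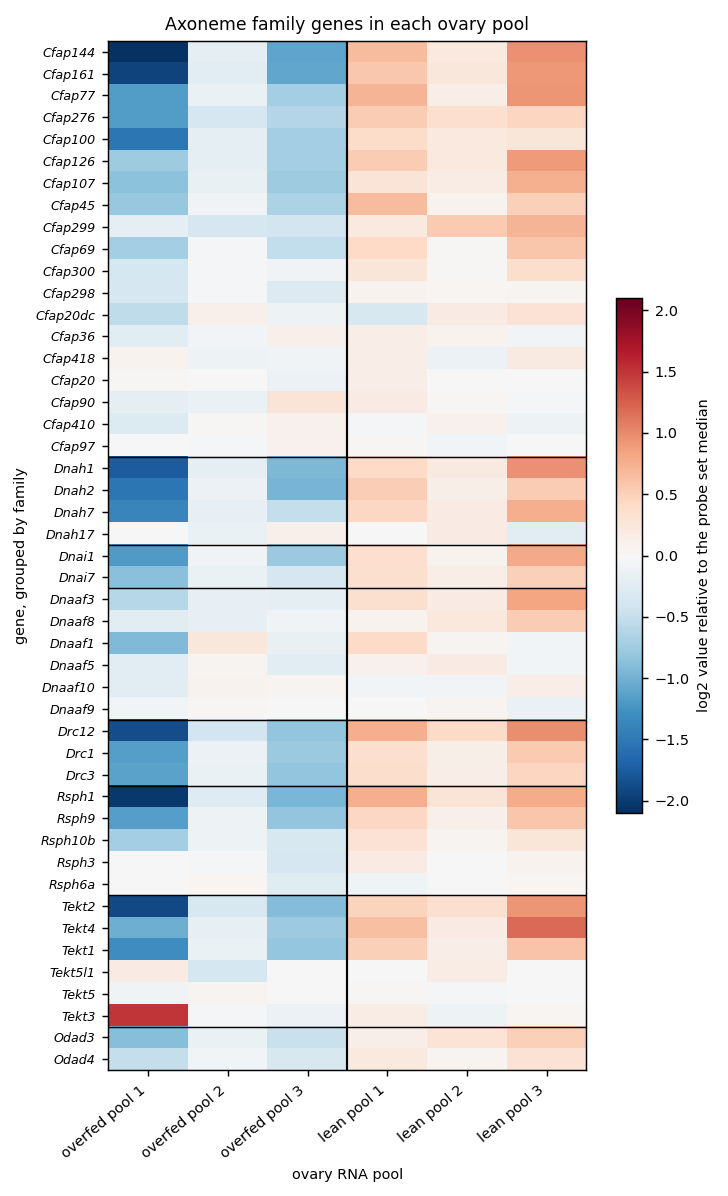
Log2 value of each of the 47 genes relative to its probe set median (colour, blue low and red high) in overfed pools 1 to 3 and lean pools 1 to 3 (columns), grouped by family (rows, divided by lines). The overfed pool 1 column is darkest blue, down to -2.07 in Cfap144, with Tekt3 at 1.5 as its strongest red cell, and both pool 2 columns are palest.

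Axoneme genes outside these names were lower as well. The lists of ciliary genes and cell markers given from here on were also chosen with earlier results of these data known. Nothing is therefore read from their shares. From a list of 42 such genes, 24 were measured, of which 24 were lower in the overfed pools, 18 without overlap (6.35% of all genes), with a median of -0.68 (-0.43 without overfed pool 1 and lean pool 3). None passed the adjusted threshold in limma, and 19 had an unadjusted p under 0.05, all lower (4.42% of all genes). Spag16, a central pair gene, differed by -0.16 (SE 0.084), Ccdc40, needed to place the inner arms and the regulatory complex, by -0.65 (SE 0.12), and Gas8, a subunit of that complex, by -0.45 (SE 0.084). Helpers of dynein assembly were 8 of 8 lower with a median of -0.17, among them Zmynd10 at -1.06 (SE 0.25), Pih1d1 at -0.15 (SE 0.083) and Pih1d2 at -0.76 (SE 0.18). Intraflagellar transport and BBSome genes, which serve immotile primary cilia as well, were 32 of 35 lower, 19 without overlap (6.35% of all genes) and 17 at an unadjusted p under 0.05 (4.42%). Their median was -0.24 (-0.13 without overfed pool 1 and lean pool 3). At least 1.5-fold lower was 1 gene, 2.86% of the list, near the 1.88% of all genes. Ift20 was at 0.03 (SE 0.086), Ift22 at -0.17 (SE 0.13) and Ift25 at -0.22 (SE 0.10). Among 12 regulators of multiciliated cells 9 were lower, with a median of -0.16, 6 of them without overlap (6.35% of all genes). The 3 higher ones, named after their values were seen, were Rfx4 (0.19), Tfdp1 (0.15) and E2f5 (0.14), the last without overlap (7.09% of all genes). Foxj1 had -0.72, -0.21 and -0.50 in the overfed pools, against 0.58, 0.21 and 0.95 in the lean pools (-1.06, SE 0.21). Rfx1 differed by -0.12 (SE 0.065) and Rfx2 by -0.88 (SE 0.27).

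Marker lists of ciliated and secretory epithelium were lower in the overfed pools, and the lists of other cells had medians near 0 or above it. Of 10 listed markers of ciliated epithelium, the 7 measured outside the families were all lower without overlap (6.35% of all genes), with list means of -1.42, -0.17 and -0.80 in overfed pools 1 to 3, against 0.50, 0.18 and 0.73 in lean pools 1 to 3. Of the 7, Foxj1 was also counted among the regulators of multiciliated cells, and Dynlrb2 among the axoneme genes outside the families. Tppp3 differed by -1.26 (SE 0.27) and Tmem212 by -1.48 (SE 0.43). Markers of oviduct secretory epithelium were 9 of 9 lower, with Pax8 at -0.73 (SE 0.34), Krt7 at -0.46 (SE 0.34) and Krt19 at -0.80 (SE 0.29), but they ran in another order. Their means were 0.20, -0.29 and -0.77 in the overfed pools, against 0.39, -0.22 and 0.63 in the lean pools, so the groups overlapped and overfed pool 1, lowest in the axoneme genes, was the highest overfed pool. Smooth muscle markers had means of 0.94, -0.42 and -0.62, against 0.39, -1.07 and 0.71, with Acta2 at -0.37 (SE 0.60), Myh11 at 0.01 (SE 0.44) and Tagln at -0.04 (SE 0.45).

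Ovarian surface epithelium and mesothelium markers were 3 of 6 lower (means from -0.083 to 0.14 in the overfed pools, against -0.17 to 0.41 in the lean pools), with Upk1b at 0.48 (SE 0.45), Msln at 0.07 (SE 0.21) and Lrrn4 at 0.34 (SE 0.13). The other 3 of that list, given after their values were seen, were Krt8 at -0.62 (SE 0.28), Krt18 at -0.72 (SE 0.31) and Nkain4 at -0.04 (SE 0.16). Spermatid and sperm markers, of interest because the animals had been mated, were 8 of 11 lower with a median of -0.06. Prm1 was at 0.01 (SE 0.080), Prm2 at -0.06 (SE 0.093) and Tnp1 at -0.05 (SE 0.083). The list means ran from -0.15 to -0.0024 in the overfed pools, against 0.0018 to 0.090 in the lean pools. These means include Ldhc at -0.92 (SE 0.32), whereas 10 of the 11 genes lay within 0.15 of 0, so they do not describe most of the list. Granulosa markers had a median of 0.32 (1 of 6 lower) and theca markers of 0.67 (0 of 3 lower), while corpus luteum (-0.07, 5 of 6 lower) and oocyte markers (-0.08, 3 of 5 lower) were near 0, the last at 0.07 without overfed pool 1 and lean pool 3. The named genes of these lists were Amh (0.33), Cyp19a1 (0.32), Inha (0.11), Cyp17a1 (0.69), Insl3 (0.10), Aldh1a1 (0.67), Lhcgr (-0.05), Star (-0.16), Cyp11a1 (-0.09), Zp1 (-0.09), Zp2 (-0.10) and Zp3 (0.31). The part of ciliated, oviductal or other epithelial cells in the axoneme genes' difference was not tested.

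**Figure D5:**
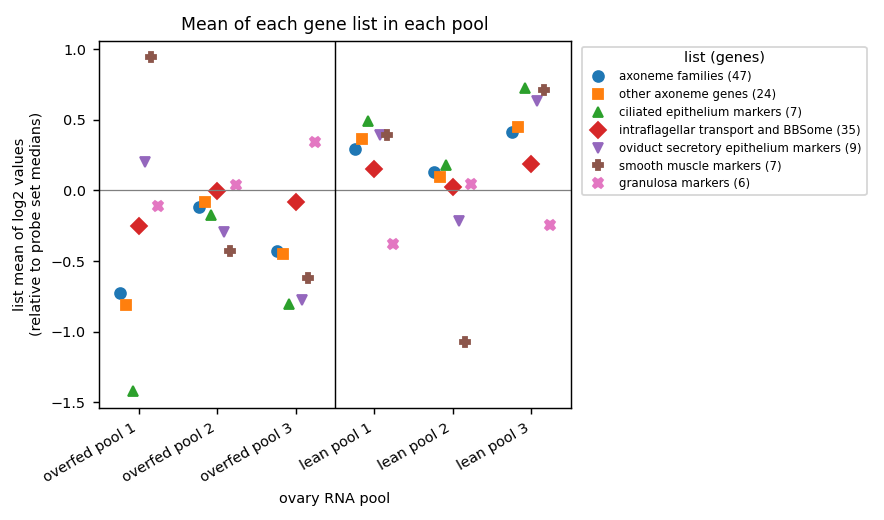
Mean log2 value, relative to probe set medians (vertical axis), of 7 gene lists in each of the 6 pools (horizontal axis, overfed then lean). The axoneme families, the other axoneme genes and the ciliated epithelium markers are lowest in overfed pool 1, where the smooth muscle mean is 0.94 and the oviduct secretory mean 0.20.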

How the data were processed

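The authors' deposited table holds log values for 31099 probe sets, taken here as log2, with the median of each probe set over the 6 arrays at 0 within 1e-06. The arrays were processed with GCOS, per the submitters' processing notes. The sources used here give no summary method, normalization or logarithm base. If the logarithms were natural, the folds would be larger than printed. The platform annotation named 1 gene for 20826 probe sets, several for 436 and none for 9780, after 57 control probe sets were left out. Entrez identifiers matched the RefSeq table for 20758 of the 20826, and 0 symbols changed. Probe sets were averaged per gene, and the diets were compared in limma 3.58.1 (R 4.3.3, lmFit and eBayes, Benjamini-Hochberg over 14217 genes), tested on simulated data. Figures used matplotlib 3.10.9 (Python 3.11.15). The table held 0 columns of other series. The members, lists and tests were chosen with earlier results of these data known.

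Named genes were all members of families of 6 or fewer, the 4 largest and 2 smallest differences in larger ones, members higher without overlap (0), members whose probe sets differed by over 0.5, and the first 3 measured genes of other lists. Other Cfap genes and some list genes were named after their values were seen, and printed promoters were chosen by their half-sites. Alternatives were other normalizations, probe set rules, priors, array weights, a pool block and left-out pools. The number of arrays limits the precision.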

Additional observations from a re-analysis of the deposited data

How the results depend on the processing

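With any 1 pool left out, 41 to 44 of the 47 members were lower, 24 to 28 were at least 1.5-fold lower, and the median difference ran from -0.83 to -0.61. The members without overlap between the groups were then 31 to 33. Leaving out a pool cannot make separate groups overlap, so that count could not fall and does not measure dependence on a pool. The family medians then ran from -0.80 to -0.62 (Cfap), -1.52 to -0.87 (Dnah), -1.17 to -0.71 (Dnai), -0.36 to -0.12 (Dnaaf), -1.31 to -0.80 (Drc), -0.74 to -0.44 (Rsph), -0.76 to -0.56 (Tekt) and -0.80 to -0.49 (Odad). Without overfed pool 1 and lean pool 3 together the median was -0.49 over all members, -0.50 in Cfap and -0.20 in Dnaaf. With 1 probe set per gene the Rsph median was -1.08, because Rsph10b then rests on 1 of its probe sets. The limma count of genes past the adjusted threshold was 0 in the fit as reported, on single probe sets and with any 1 pool left out, 1 with a trend and a robust prior, and 2 with the genes of below-median SD left out, of which 0 were axoneme genes. Over all 47 members, 30 sign changes occurred under these settings, in 11 members, all with groups that overlapped. With pools left out, a member without overlap cannot change sign, so nothing is read from that. The labels do not say whether the pool numbers pair the samples, and they were not treated as pairs. Deviations of same-numbered pools correlated over genes at 0.11, 0.15 and -0.38, which cannot decide how the pools were prepared. With the pool number as a replicate block the count of genes past the threshold was 0 and the median difference -0.76.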

Other observations

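Some ciliary genes outside the families, chosen after their values were seen, had differences as large as those of the leading members. Myb, a transcription factor that multiciliated cells express while they amplify centrioles, had -1.96, -0.28 and -0.85 in overfed pools 1 to 3, against 1.03, 0.28 and 1.06 in lean pools 1 to 3, a difference of -1.82 (SE 0.44). Deup1, of the deuterosome on which those centrioles form, had -1.42, -0.44 and -1.05 in the overfed pools, against 0.88, 0.44 and 0.54 in the lean pools (-1.59, SE 0.25). Ccno, a cyclin-like regulator of the same step, overlapped between the groups (-0.14, SE 0.11). Ldhc, a lactate dehydrogenase listed as a sperm marker, had -1.18, 0.04 and -0.62 in the overfed pools, against 0.52, -0.04 and 0.55 in the lean pools, unlike the protamine genes of its list. None of these passed limma's adjusted threshold.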
